A study of Mus musculus with 5 samples.

Results

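The collagen genes outside the collagen VI family were followed across the cells of mouse ventral skin. They were taken as every gene whose symbol has the form of a collagen chain (Col, a number, a, a number), leaving out the 6 collagen VI chains, which gave 38 of the 31053 genes in the matrices. The mice were of strain C57BL/6J and 28 days old, and single cells of their skin were profiled with 10x 3' v2 chemistry. Wild-type mice gave 2 libraries (WT 1 and 2) and Prx1Cre+Ikkbf/f mice gave 3 (Ikkb_cKO 1 to 3). In the latter, Cre driven by an enhancer of Prrx1, a gene of limb and trunk mesenchyme, deletes floxed Ikkb. Ikkb (symbol Ikbkb) encodes the kinase that releases NF-kB from its inhibitors. Each library pooled the cells of 2 mice, and the labels give no Cre-only or floxed-only control. Skin had been digested with collagenase and dispase and sorted against debris, dead cells and aggregates, with no gate for a cell type. By its title the series asks about NF-kB in Prx1 lineage fibroblasts and atopic dermatitis.

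Collagens are trimers of chains that wind into a triple helix. Collagens I, III and V build the fibrils of the dermis, and collagens XI, XXIV and XXVII are rarer fibrillar chains. Collagen IV forms the network of basement membranes. FACIT collagens (XII, XIV, XVI and others) lie on fibril surfaces, the multiplexins XV and XVIII sit at basement membranes, collagen VII anchors the epidermis, collagen VIII forms short-chain networks, and collagens XIII, XVII, XXIII and XXV span the cell membrane. In skin the fibroblast is the main source of fibrillar collagen.

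The start regions of a few members named below are shown as background. Col4a1 and Col4a2 share a start region, and only the second was called, though both lay below WT in every Ikkb_cKO library. Col13a1 fell, Col5a3 was high in a subset of cells and Col3a1 was the most abundant member. No sequence or motif was tested against a level or a call. Sequences come from the RefSeq table (GRCm38.p6), which held 31 windows of 29 members. For the last 3 genes the 250 bases before the annotated start are printed 5' to 3' on the gene's strand. Capitals mark matches on either strand to 3 core promoter motifs. The box named after TATA was searched as TATAAA. The second motif searched was CCAAT, which is bound by the factor NF-Y. The GC box, bound by Sp1, was searched as GGGCGG. No motif of these contains another. The Col4a1 and Col4a2 genes (GENCODE, GRCm38, chr8:11198423-11312826 on the minus strand and chr8:11312805-11449287 on the plus strand) run away from each other, and the 22 bases at chr8:11312805-11312826, shown on the plus strand, belong to the 5' ends of both.
Col4a1 and Col4a2, shared 5' ends: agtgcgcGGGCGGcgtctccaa
Col13a1, chr10:61979109-61979358, minus strand: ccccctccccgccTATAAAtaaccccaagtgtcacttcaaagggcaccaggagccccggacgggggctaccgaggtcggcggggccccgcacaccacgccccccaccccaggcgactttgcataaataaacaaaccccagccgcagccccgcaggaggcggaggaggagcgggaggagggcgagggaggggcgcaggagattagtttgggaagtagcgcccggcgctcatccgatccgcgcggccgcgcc
Col5a3, chr9:20815068-20815317, minus strand: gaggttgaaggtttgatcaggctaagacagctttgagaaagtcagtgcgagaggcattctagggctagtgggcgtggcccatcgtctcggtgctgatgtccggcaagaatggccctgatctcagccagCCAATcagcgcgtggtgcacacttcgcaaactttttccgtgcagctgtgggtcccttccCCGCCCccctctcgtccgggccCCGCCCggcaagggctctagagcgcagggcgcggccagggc
Col3a1, chr1:45311288-45311537, plus strand: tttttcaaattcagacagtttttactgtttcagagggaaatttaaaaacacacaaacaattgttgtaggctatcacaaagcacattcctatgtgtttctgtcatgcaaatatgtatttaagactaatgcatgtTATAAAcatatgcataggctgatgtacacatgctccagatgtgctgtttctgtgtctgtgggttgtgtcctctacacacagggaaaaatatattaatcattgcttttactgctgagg
Over the 31 windows of members, TATAAA stood in 16.1% (12.4% of all 32817 windows of this length), CCAAT in 38.7% (33.8% of all) and GGGCGG in 54.8% (32.7% of all). The NF-kB consensus motif stood in 12.9% of the members' windows and in 7.25% of all. The windows of members had a median GC content of 59.6%, against 52.4% over all windows. The other collagen IV pairs are also head to head: 71 bases lie between the 5' ends of Col4a3 and Col4a4 on chromosome 1, and 1308 between those of Col4a5 and Col4a6 on chromosome X.

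The libraries differed before any collagen gene was considered. They held 3206 and 3393 barcodes in WT and 1017, 945 and 2523 in Ikkb_cKO, and 10539 of 11084 barcodes were kept. Any pair of libraries shared at most 17 barcodes (at most 0.635% of the smaller library). Of the kept cells 5477 were fibroblast-like, with 1749 and 1872 from WT libraries against 518, 482 and 856 from Ikkb_cKO. All 10 fibroblast markers were detected in each library, and none of them was a collagen. The median UMI count of these cells was 4733 and 5262 in WT and 1547, 1751 and 2450 in Ikkb_cKO, and their median mitochondrial share was 2.10% and 2.13% in WT and 3.23% to 3.47% in Ikkb_cKO. Ikkb_cKO 3 stood apart: it had 307 keratinocyte-like cells against 8 to 29 in the other libraries and 1 muscle-like cell against 18 to 79. Ikbkb itself gave 15.6 and 18.9 normalised CPM in WT fibroblast-like cells and 16.02, 20.9 and 15.2 in Ikkb_cKO. This 3' tag count checks the labels only if the tag lies in the deleted part, which the labels do not give.

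Most collagen UMIs lay in fibroblast-like cells, and the other classes gave smaller shares of their UMIs to these genes. In fibroblast-like cells the 38 genes took 4.01% and 3.98% of all UMIs in WT 1 and 2, and 3.33%, 3.33% and 5.69% in Ikkb_cKO 1, 2 and 3. Library 3 was the high one and libraries 1 and 2 lay below WT. Col1a1, Col1a2 and Col3a1 made up between 83.4% and 90.7% of these UMIs in every library. Without these 3 genes the share was nearly level: 0.541% and 0.580% in WT, and 0.554%, 0.530% and 0.529% in Ikkb_cKO. In WT the share was 0.282% ± 0.0553 (SD, n = 2 libraries) in endothelial-like cells, 0.566% ± 0.0611 in mural-like cells (pericytes and smooth muscle) and 0.787% ± 0.492 in Schwann-like cells. In myeloid-like cells it was 0.0476% ± 0.000673. UMIs of a 3' tag count a transcript once whatever its length, so levels of different genes are compared per transcript, as CPM (UMIs scaled to the class total).

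Of the 38 members, 1 (Col10a1, the hypertrophic cartilage collagen) had no UMI in any named class, 5 had 1 to 19 UMIs (Col2a1, Col9a1, Col9a2, Col19a1 and Col22a1) and 32 had 20 or more. Of these 32, the mean WT level was highest in fibroblast-like cells for 14, in Schwann-like cells for 7, in endothelial-like cells for 4, in mural-like cells for 3, in keratinocyte-like cells for 2, in lymphocyte-like cells for 1 (Col8a2) and in muscle-like cells for 1 (Col26a1). Some of these places rest on very few UMIs. The WT libraries of the highest and the next class overlapped for Col4a3, Col4a6 and Col25a1 (Schwann-like), Col8a2, Col26a1 (2.11 CPM) and Col11a2 (mural-like, 3.75 CPM), among others. The classes were drawn from clusters built without any collagen gene, and these levels are a description with no test.

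**Figure D1:**
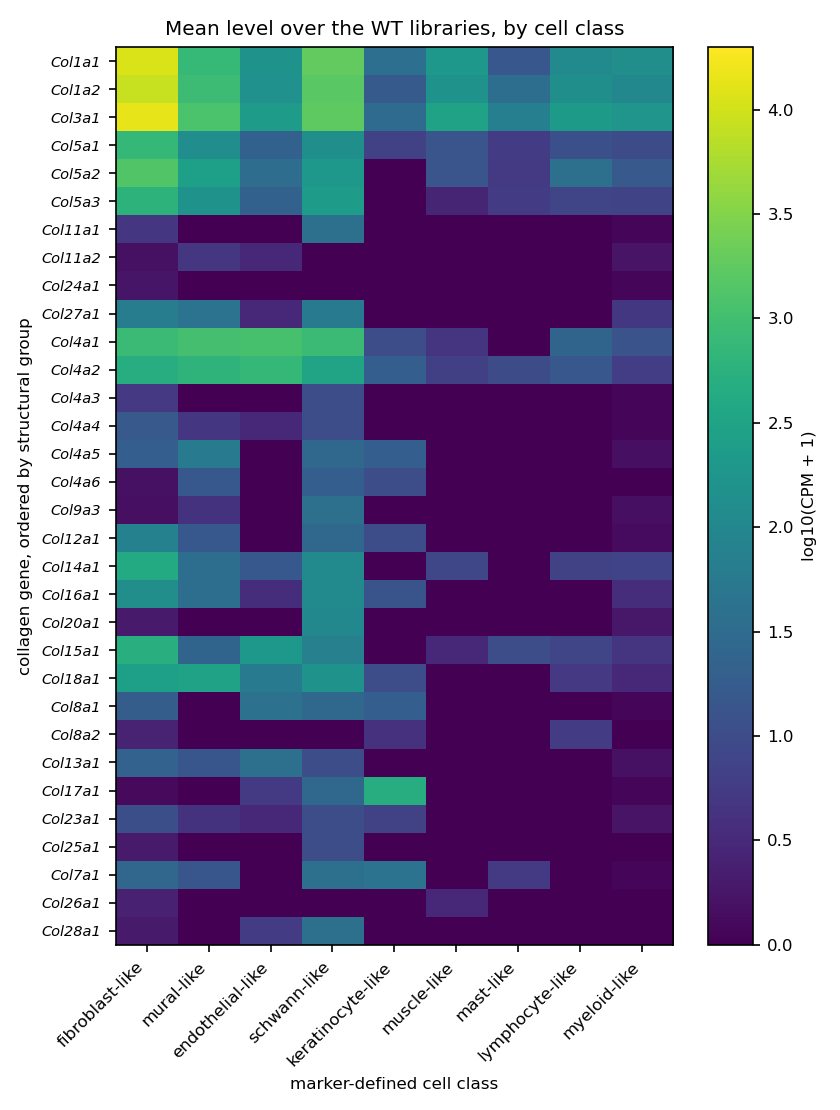
Mean level of the 32 collagen genes with at least 20 UMIs (rows, by structural group) in each marker-defined class (columns), as log10(CPM + 1) over the 2 WT libraries. Col1a1, Col1a2, Col3a1, Col5a1, Col5a2 and Col5a3 are highest in fibroblast-like cells, Col4a1 and Col4a2 are bright in endothelial-like and mural-like cells too, and Col17a1 stands out in keratinocyte-like cells.

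The chains of collagens I, III and V led in fibroblast-like cells. Col3a1, the chain of the collagen III homotrimer, stood at 14209 and 13831 CPM in WT 1 and 2. Col1a1 and Col1a2, whose chains together form collagen I, stood at 11696 and 11429 and at 8756 and 8781 CPM. The highest level of Col3a1 outside fibroblast-like cells was a WT mean of 1727 CPM in Schwann-like cells, where the libraries were far apart (2568 and 887). The collagen V chains, which start collagen fibrils, followed at WT means of 1339 (Col5a2), 738 (Col5a1) and 599 CPM (Col5a3), and each was higher in both WT libraries of fibroblast-like cells than in any other class. Col27a1 reached 63.8 CPM in fibroblast-like and 55.6 CPM in Schwann-like cells.

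Of the collagen IV genes, Col4a1 and Col4a2 were shared between endothelial-like, mural-like and fibroblast-like cells. Col4a1 stood at 1043 and 1207 CPM in endothelial-like cells, 1110 and 1014 in mural-like cells and 817 and 873 in fibroblast-like cells of WT 1 and 2. Col4a2 stood at 716 and 734, 495 and 777, and 450 and 503 CPM in the same classes. The endothelial and mural values overlapped for both genes. In Ikkb_cKO endothelial-like cells, 9, 10 and 42 cells in number, Col4a1 stood at 2304, 2088 and 1005 CPM and Col4a2 at 443, 933 and 536. Col4a5 was highest in mural-like cells (45.02 and 65.8 CPM, from 16 UMIs), above its level in fibroblast-like cells (19.95 and 16.9). Its head-to-head neighbour Col4a6 had 38 UMIs over all classes, and the WT means of Col4a3 and Col4a4 in fibroblast-like cells were 4.18 and 14.9 CPM.

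The other groups had sharper patterns. Col17a1, a hemidesmosome component of basal keratinocytes, stood at 330 and 634 CPM in WT keratinocyte-like cells and at 71.7, 222 and 117 in those of Ikkb_cKO. These rest on 130 and 354 UMIs, and 14, 29, 8, 10 and 307 cells. No test was made there, since 3 libraries held fewer than 20 such cells. The multiplexin Col15a1 was at 476 and 547 CPM in WT fibroblast-like and 209 and 178 in endothelial-like cells. Col18a1, the source of the fragment endostatin, was at 338 and 270 CPM in mural-like and 249 and 291 in fibroblast-like cells, which overlap. Col20a1, a FACIT chain, was highest in Schwann-like cells at 112 and 92.4 CPM from 11 UMIs, against 1.03 CPM as a WT mean in fibroblast-like cells. Col9a3 and Col28a1 each gave 4 UMIs in WT Schwann-like cells and means of 37.0 CPM there.

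Within fibroblast-like cells, 10 clusters were found, and the genotypes filled them differently. Cluster 2, called preadipocyte-like from its markers (Fabp4 and Cd36 among them), held 20.01% and 21.7% of the fibroblast-like cells in WT and 3.67%, 2.49% and 1.17% in Ikkb_cKO. Cluster 12, called universal-fibroblast-like (Pi16, Dpp4), held 14.6% and 15.97% in WT and at most 0.965% in Ikkb_cKO. Clusters 4 and 31, both with Ptx3 and Smpd3 list markers, held 1.03% and 1.07% (cluster 4) and no cell (cluster 31) in WT, against 34.9%, 27.8% and 27.2% (cluster 4) and 39.4%, 45.02% and 6.89% (cluster 31) in Ikkb_cKO. Cluster 0, led by Coch and Dkk2, held 35.4% of Ikkb_cKO 3 and at most 2.90% elsewhere. The remaining clusters were 3 (led by Vtn and Fmo2), 5 (Thbs4 and Cilp), 6 (Crabp1), 10 (Il1r2 and Ctsk) and 11 (Ccl19).

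Collagen genes differed widely in how evenly these clusters carried them in WT. Col3a1 ranged least, from 11102 CPM in cluster 5 to 15685 in cluster 6, and Col5a1 ranged 1.73-fold. Col15a1 ranged from 1245 ± 109 CPM in cluster 6 to 9.18 ± 7.52 (SD, n = 2) in cluster 12, a 136-fold span. Col4a1 and Col4a2 were highest in cluster 4 (2394 and 1047 CPM) and lowest in cluster 12 (136 and 69.8 CPM). Col18a1 was highest in cluster 2 (526 CPM) and lowest in cluster 12 (18.0 CPM). Cluster 6 had the highest Col13a1 (113 CPM, next 21.6), Col7a1 (167 CPM) and Col12a1 (177 CPM). Col8a1 was highest in cluster 5 (129 CPM, next 3.14), and Col16a1, Col11a1 and Col23a1 were highest in cluster 0 at 430, 63.6 and 61.9 CPM. Col14a1, a FACIT chain, was highest in cluster 12 (716 CPM) and lowest in cluster 0 (127 CPM). Col1a1 and Col1a2 were highest in clusters 10 and 0, which overlapped.

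**Figure D2:**
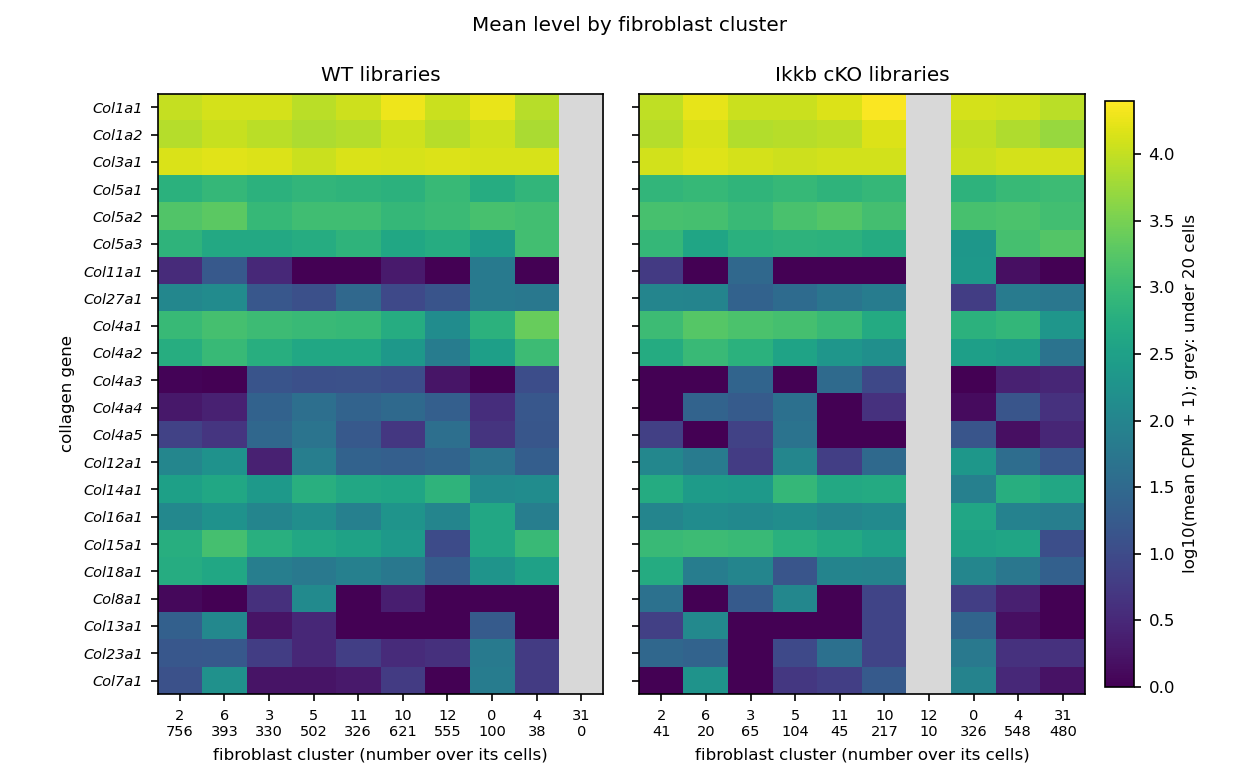
Mean level of the 22 tested collagen genes (rows) in each fibroblast cluster (columns, with its cells beneath), as log10(mean CPM + 1), for WT and Ikkb_cKO libraries; grey marks clusters with under 20 cells in that genotype. The bright Col4a1 and Col4a2 cells of WT cluster 4 are not matched in Ikkb_cKO, and cluster 31 is dark for Col15a1 and bright for Col5a3.

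Cluster 31, found in Ikkb_cKO alone, had the highest mean Col5a3 of any cluster, 1764, 1800 and 1368 CPM in libraries 1, 2 and 3, against 1393, 1485 and 863 in cluster 4 of the same libraries. Its Col15a1 was at 4.57, 3.69 and 23.2 CPM and its Col4a2 at 52.5, 48.0 and 40.6 CPM, near the levels of WT cluster 12. Cluster 4 was in both genotypes, with 18 and 20 WT cells against 181, 134 and 233 Ikkb_cKO cells. Col4a1 stood there at 2460 and 2328 CPM in WT and 1092, 818 and 540 in Ikkb_cKO, and Col4a2 at 1067 and 1027 against 362, 240 and 165. Col15a1 stood at 783 and 1159 against 521, 360 and 252 CPM. No test was made there because WT 1 held under 20 cells.

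Over all fibroblast-like cells the genotype comparison called few collagen genes, and all of them lower in Ikkb_cKO. Of the 38 members 22 had enough counts to be tested (edgeR's quasi-likelihood test, Benjamini-Hochberg adjustment over all 10391 genes), 4 were lower, none was higher and 18 were not called. Over all tested genes 34.4% were called, 16.8% higher and 17.7% lower, so 4 lower of 22 is near the background in that direction. The 22 were those with counts enough in either genotype, so they do not speak for the other 16. Their median log2 fold change was -0.23, against 0.04 over all tested genes. Groups did not overlap for 9 of the 22 (8 below WT, 1 above), against 60.4% of all tested genes (31.1% below and 29.3% above). In bulk sums such as these, fewer cells of a kind and less RNA per cell cannot be told apart.

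**Figure D3:**
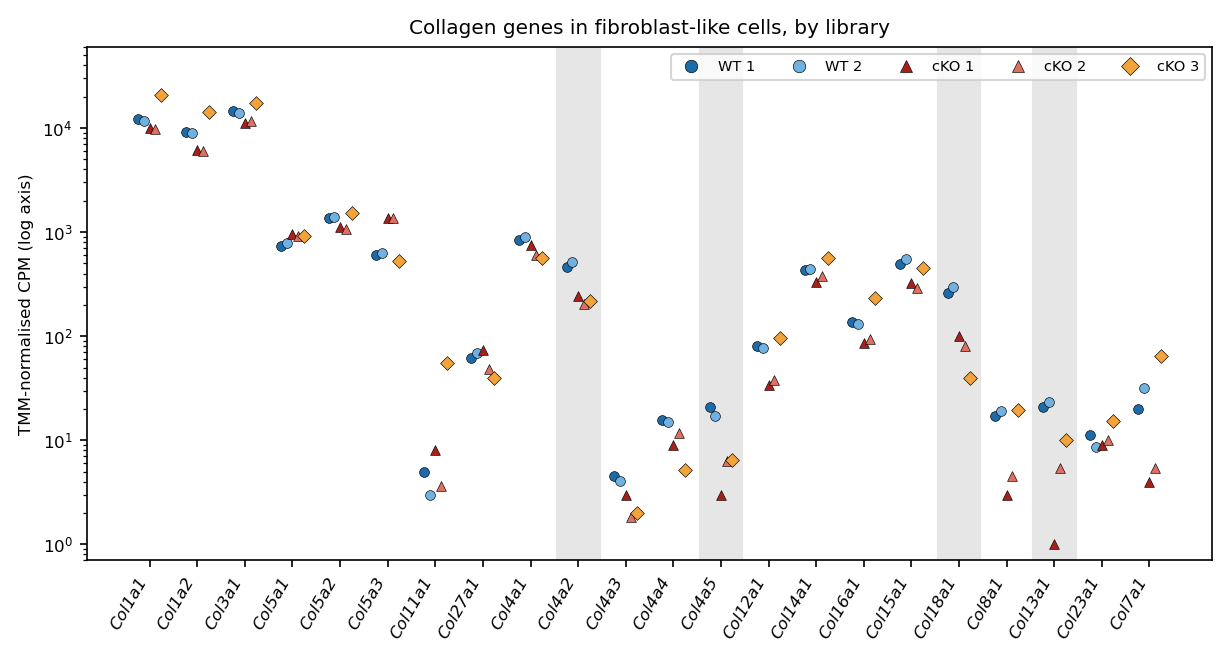
TMM-normalised CPM (log axis) of the 22 tested collagen genes in fibroblast-like cells, one point per library (circles WT, triangles Ikkb_cKO 1 and 2, diamonds Ikkb_cKO 3), ordered by structural group; grey bands mark the 4 genes called. The diamonds of Col1a1, Col1a2 and Col3a1 lie above WT while the triangles lie below.

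Among the fibrillar genes, 8 of 11 were tested and 0 called, and Ikkb_cKO 3 lay away from its partners. Normalised Col1a1 stood at 12104 and 11634 CPM in WT, 10097 and 9708 in Ikkb_cKO 1 and 2, and 20782 in Ikkb_cKO 3 (log2 fold change 0.19, SE 0.36, edgeR adjusted p = 0.710). Col3a1 stood at 14705 and 14079 in WT and at 11098, 11561 and 17501 in Ikkb_cKO (-0.10, SE 0.21, adjusted p = 0.721). Col1a2 stood at 9062 and 8939 in WT and at 6134, 6036 and 14273 in Ikkb_cKO (-0.03, SE 0.41, adjusted p = 0.965). In each of these 3 genes libraries 1 and 2 were below both WT libraries and library 3 above both. The same split was seen for 9 of the 22 tested members in all, the others being Col5a2, Col7a1, Col8a1, Col12a1, Col14a1 and Col16a1. Its share over all tested genes was not counted, so it is not shown to be particular to collagen genes. Over all genes with enough UMIs, Ikkb_cKO 3 also differed from libraries 1 and 2 (chi-square per degree of freedom 14.3 and 15.0, against 1.46 between libraries 1 and 2). The 2 WT libraries gave 4.72. This value grows with the number of UMIs, which differed between libraries, so the pairs are not on 1 scale.

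Col5a3 split the other way, at 597 and 633 normalised CPM in WT, 1379 and 1381 in Ikkb_cKO 1 and 2, and 526 in Ikkb_cKO 3 (log2 0.83, SE 0.43, adjusted p = 0.187). Col5a1 was above WT in every Ikkb_cKO library, at 967, 914 and 913 against 736 and 778, and missed the threshold (0.30, SE 0.11, adjusted p = 0.0765). Col5a2 was at 1363 and 1386 in WT and 1107, 1074 and 1532 in Ikkb_cKO. Col11a1, a nucleator of cartilage and thin fibrils, was at 4.93 and 3.01 in WT, 8.01 and 3.64 in Ikkb_cKO 1 and 2, and 54.8 in Ikkb_cKO 3 (2.71, SE 0.99, adjusted p = 0.0857), and 144 of its 149 UMIs in Ikkb_cKO fibroblast-like cells lay in cluster 0.

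Leaving out Ikkb_cKO 3 moved the count from 4 to 17 called members, 15 lower and 2 higher (48.1% of all genes were then called, 24.8% lower and 23.3% higher). The 2 higher were Col5a3 (log2 1.17, SE 0.08, adjusted p = 2.20e-20) and Col5a1 (0.31, SE 0.08, adjusted p = 0.000561). Col1a1, Col1a2 and Col3a1 were then lower by log2 values of -0.26, -0.56 and -0.34. That fit sets WT against 2 libraries of 2 mice each that are close to one another, and edgeR's p-values measure only the spread between libraries.

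The basement membrane genes held 2 of the 4 calls. Col4a2 fell from 466 and 512 normalised CPM in WT to 244, 204 and 220 in Ikkb_cKO (log2 -1.13, SE 0.14, adjusted p = 0.00265), with no overlap. Its partner Col4a1 stood at 846 and 889 in WT and at 749, 601 and 566 in Ikkb_cKO, also without overlap, and was not called (-0.44, SE 0.15, adjusted p = 0.0598). Col4a5 (chrX:141475385-141689234, plus strand) fell from 20.7 and 17.2 to 3.00, 6.37 and 6.40 (-1.76, SE 0.30, adjusted p = 0.00660), which rests on 26 UMIs in Ikkb_cKO. Col4a3 and Col4a4, its relatives of the kidney and lung basement membrane, were lower in each Ikkb_cKO library than in WT and were not called (adjusted p = 0.0995 and 0.0649). Col4a6 was not tested.

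Of the multiplexins, Col18a1 (chr10:77052178-77166548, minus strand) fell from 258 and 296 normalised CPM to 101, 80.0 and 39.6 (log2 -1.95, SE 0.36, adjusted p = 0.0106). Col15a1 stood at 493 and 557 in WT and 325, 290 and 455 in Ikkb_cKO (-0.55, SE 0.21, adjusted p = 0.0770). Of the transmembrane group, Col13a1 (chr10:61838236-61979108, minus strand), a membrane collagen of focal contacts, fell from 20.8 and 23.3 to 1.00, 5.46 and 10.0 (-1.75, SE 0.46, adjusted p = 0.0278), on 32 UMIs in Ikkb_cKO. Col23a1 was not called. The FACIT genes Col12a1, Col14a1 and Col16a1, the short-chain gene Col8a1 and the anchoring fibril gene Col7a1 were not called either. Col7a1 stood at 20.02 and 32.1 in WT, 4.01 and 5.46 in Ikkb_cKO 1 and 2, and 64.8 in Ikkb_cKO 3.

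Without WT 1 or without WT 2 only Col4a2 remained called, and Col13a1 was also lost without Ikkb_cKO 2 (adjusted p = 0.0794). Cluster levels were also averaged with the same weights in every library (the WT share of UMIs over the 8 clusters with at least 20 cells in each genotype, a step chosen after seeing the data). On this scale Col4a2 stood at 515 and 565 CPM in WT and 548, 531 and 379 in Ikkb_cKO. Col18a1 stood at 291 and 329 against 347, 362 and 40.7, Col13a1 at 24.4 and 25.4 against 1.88, 38.3 and 17.8, and Col4a5 at 16.2 and 13.4 against 6.40, 16.4 and 8.22. The genotypes overlapped for all 4 genes, whereas in the pooled cells none of the 4 overlapped. Col5a3 stood at 593 and 629 against 720, 775 and 575 CPM, and Col15a1 at 559 and 623 against 782, 1027 and 583. Clusters 12 and 31 are outside this weighting. The weighted clusters held 85.4% and 84.0% of WT fibroblast-like cells and 59.7%, 54.1% and 93.0% of Ikkb_cKO cells, and the smallest held 2 cells in a library, so single values are loose and no test was made. The part of cluster makeup in the 4 calls was not tested.

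**Figure D4:**
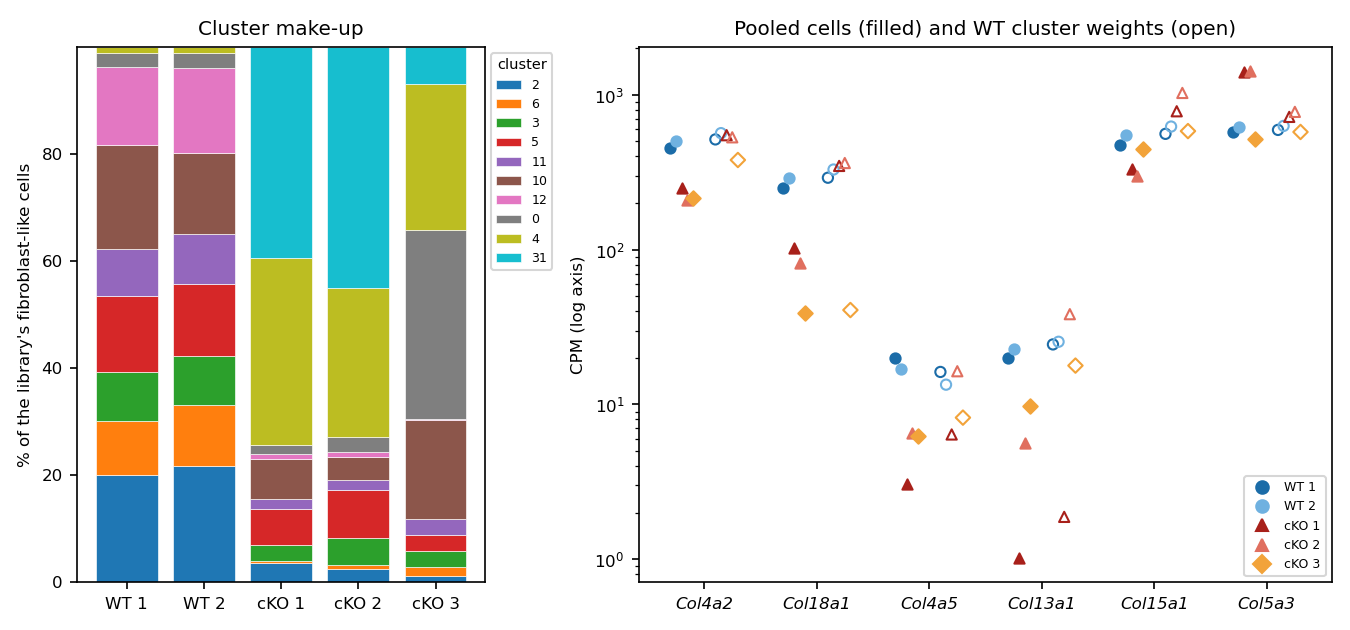
Left, share of each library's fibroblast-like cells by cluster (stacked bars, percent). Right, CPM (log axis) of 6 collagen genes per library in pooled fibroblast-like cells (filled) and with WT cluster weights in every library (open): the filled points of Col4a2, Col18a1, Col4a5 and Col13a1 separate the genotypes and the open ones overlap.

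Inside cluster 2, which carried most WT Col18a1 UMIs, the gene stood at 499 and 553 CPM in WT and at 767, 692 and 56.2 in Ikkb_cKO, the last from 10 cells. Summed markers of mural cells in fibroblast-like cells were at 370 and 401 CPM in WT and 116, 93.3 and 417 in Ikkb_cKO (11, 11, 9, 8 and 11 of 12 markers with a UMI). Summed endothelial markers were at 44.4 and 52.9 against 23.4, 39.2 and 51.1 CPM. The part of these markers, of depth and of mitochondrial share in the collagen values was not tested. With each cell thinned to 1000 UMIs, 5 members were called lower, when 27.8% of all genes were called (14.9% lower).

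Only clusters 5 and 10 had at least 20 cells in every library and could be tested on their own. In cluster 5, 13 members were tested and 2 were higher in Ikkb_cKO, against 44.8% of all genes called (23.5% higher and 21.2% lower). In 5 of the 13 every Ikkb_cKO library lay above WT, against 31.4% of all genes, with 31.5% below and 62.9% in either direction. Col1a1 rose from 11172 and 10817 normalised CPM to 13347, 14553 and 13995 (log2 0.35, SE 0.12, edgeR adjusted p = 0.0355). Col15a1 rose from 524 and 585 to 945, 641 and 764 (0.49, SE 0.18, adjusted p = 0.0487). Both calls were lost without any 1 of the 5 libraries, with Col1a1 values from 0.13 to 0.29 and Col15a1 values from 0.20 to 0.48. Col4a2 was not called in cluster 5 (-0.26, SE 0.26, adjusted p = 0.421).

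In cluster 10, 13 members were tested and 1 rose (18.7% of all genes called, 8.09% higher and 10.6% lower). Groups did not overlap for 2 of the 13, Col27a1 above and Col4a1 below WT, against 39.8% of all genes (15.7% above and 24% below). Col27a1, one of the rarer fibrillar chains, went from 9.28 and 10.96 normalised CPM to 59.98, 92.3 and 49.2 (log2 2.42, SE 0.53, adjusted p = 0.00415), on 14 UMIs in WT and 20 in Ikkb_cKO. Ikkb_cKO 1, 2 and 3 gave 3, 3 and 14 of these. The gene passed the low-count filter through Ikkb_cKO alone, where it was high, so the call is no independent support for a rise. The call was lost without either WT library (adjusted p = 0.300 and 0.255). TMM moved the median log2 of all genes in this cluster from 0.19 to -0.04, and in lymphocyte-like cells from -0.12 to 0.01. Whether the genotype effect differed between the clusters was tested for 17 members, and none was called (0.286% of all genes). Among them 2 had an unadjusted p under 0.05. The largest difference by p was for Col18a1 (cluster 10 minus cluster 5, log2 2.62, SE 0.87, adjusted p = 0.246). On leaving out a library up to 3 members were called, and the share of all genes called in those fits is not given here.

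In myeloid-like cells 7 members were tested and 6 were lower in Ikkb_cKO, with 18.2% of all genes called (8.68% higher and 9.55% lower). All 7 lay below WT in every Ikkb_cKO library, against 24.4% of all genes below, 21.1% above and 45.4% in either direction. Col4a1, Col5a1, Col5a2 and Col5a3 passed the low-count filter by their WT counts, with 0 to 7 UMIs in any Ikkb_cKO library. Their lower values are therefore partly set by the filter. Only Col1a1, Col1a2 and Col3a1 had the counts to pass in Ikkb_cKO too. Col3a1 fell from 179 and 169 normalised CPM to 32.1, 55.5 and 25.5 (log2 -2.34, SE 0.28, adjusted p = 0.000375), and Col1a1, Col1a2, Col4a1, Col5a2 and Col5a3 fell too, the last with no UMI in Ikkb_cKO. These are low levels. Only 13.0% and 16.4% of WT myeloid-like cells had a Col3a1 UMI, at median depths of 2560 and 2687 UMIs, against 99.7% of fibroblast-like cells in each WT library at 4733 and 5262. In mast-like cells the WT shares were 14.3% and 21.95% at 3419 and 2964 UMIs, above the myeloid ones. For Col1a1 they were 8.57% and 0% in mast-like cells, below the 9.98% and 11.9% of myeloid-like cells. Whether these UMIs come from the myeloid-like cells themselves was not tested. The makeup of this class differed by genotype too. WT 1 and 2 held 822 and 873 myeloid-like cells, and Ikkb_cKO held 140, 166 and 557. Of these, cluster 8 held 314 and 301 against 4, 7 and 45, and cluster 9 held 136 and 162 against 4, 16 and 68. Cluster 18 held 214 and 225 against 64, 82 and 249. Median depth in Ikkb_cKO was 1687, 1511 and 2449 UMIs. The part of makeup and depth in the lower values was not tested. As a share of the fibroblast level in the same library, the 6 called members in myeloid-like cells lay between 0.982% and 1.66% in WT, and between 0% and 0.460% in Ikkb_cKO.

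In lymphocyte-like cells 3 members were tested and none was called by edgeR's quasi-likelihood test (11% of all genes called, 6.76% higher and 4.24% lower), with 0 at an unadjusted p under 0.05, 0 by DESeq2 and 0 by limma. The genotypes overlapped for all 3, while 48.3% of all genes did not overlap (24.4% above and 24% below). Col3a1 stood at 60.6 and 380 normalised CPM in WT and at 99.3, 65.8 and 65.2 in Ikkb_cKO, and WT 2 was the high library.

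Ratios between chains need no scaling across libraries. The UMI ratio of Col4a2 to Col4a1 in fibroblast-like cells was 0.550 and 0.576 in WT and 0.326, 0.339 and 0.389 in Ikkb_cKO. No Ikkb_cKO value reached WT (exact permutation test, two-sided, p = 0.1, the smallest that 2 against 3 libraries allow, 0.25 adjusted over the 5 ratios tested). The ratio of Col1a1 to Col1a2 was 1.34 and 1.301 in WT and 1.65, 1.61 and 1.46 in Ikkb_cKO, again without overlap (exact permutation p = 0.2). That of Col5a1 to Col5a2 was 0.540 and 0.561 against 0.873, 0.851 and 0.596, also without overlap. Col5a3 to Col5a1 overlapped, at 0.811 and 0.814 against 1.43, 1.51 and 0.576. Col3a1 to Col1a1 was 1.21 in both WT libraries and 1.10, 1.19 and 0.842 in Ikkb_cKO, without overlap (exact permutation p = 0.2). Ikkb_cKO 3 lay on the side of its group for each of these ratios except Col5a3 to Col5a1.

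Within single clusters these ratios did not all keep their direction. Of the 9 fibroblast clusters with cells of both genotypes, the ratio of summed UMIs of Col4a2 to Col4a1 was lower in Ikkb_cKO in 9, for instance 0.444 in WT and 0.285 in Ikkb_cKO in cluster 5. By library the genotypes were apart in clusters 3, 4, 5 and 11 but overlapped in clusters 0, 2, 6 and 10. In cluster 6 Ikkb_cKO 3 stood at 0.848, above WT at 0.753 and 0.693. Cluster 12 had only 3 Col4a2 and 11 Col4a1 UMIs in Ikkb_cKO. The ratio of Col1a1 to Col1a2 was higher in Ikkb_cKO in 5 of the 9 and lower in 4, among them cluster 0 (1.49 and 1.41). That of Col5a1 to Col5a2 was higher in 4 and lower in 5, with 0.392 and 0.653 in cluster 0 but 0.796 and 0.679 in cluster 10. Cluster 31, found in Ikkb_cKO alone, had a Col5a1 to Col5a2 ratio of 0.966. The lower Col4a2 to Col4a1 ratio was not confined to fibroblast-like cells. In endothelial-like cells it was 0.687 and 0.608 in WT and 0.192, 0.447 and 0.533 in Ikkb_cKO. The summed ratio was also lower in mural-like (0.609 and 0.439) and lymphocyte-like cells (0.588 and 0.375). It was higher in Schwann-like (0.385 and 0.550) and myeloid-like cells (0.444 and 0.667), on few Ikkb_cKO UMIs. These are descriptions with no test, and some clusters hold few cells of a genotype.

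**Figure D5:**
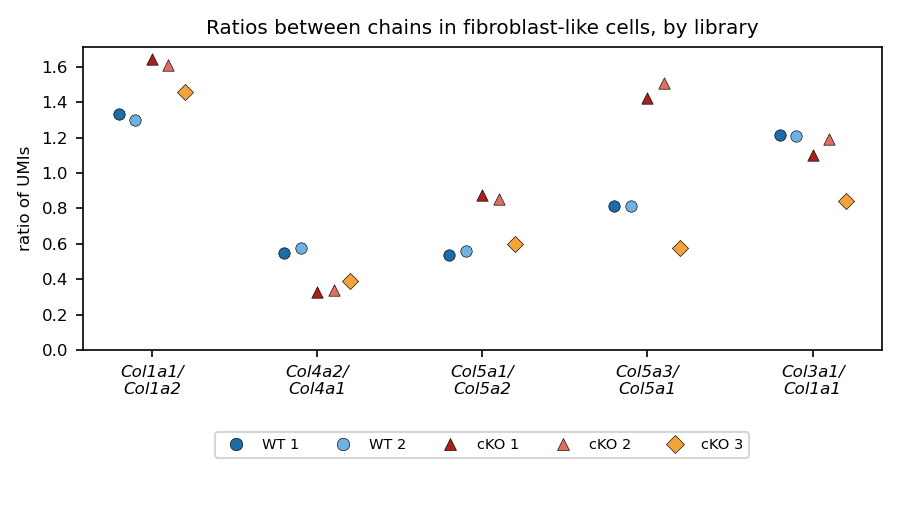
Ratio of UMIs between collagen chains (vertical axis, linear from 0) in fibroblast-like cells, one point per library. WT circles and the Ikkb_cKO points are apart for Col4a2/Col4a1, Col1a1/Col1a2 and Col5a1/Col5a2, while Col5a3/Col5a1 puts Ikkb_cKO 3 (0.576) below WT and its partners above.

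Collagen chains are hydroxylated, folded and exported before the propeptides are cut and the fibrils cross-linked. Genes of these steps were counted in the same fibroblast-like fit, in which 34.4% of all genes were called, 16.8% higher and 17.7% lower. Of the prolyl and lysyl modification genes 16 of 17 were tested, 6 were lower and 0 higher, with a median log2 of -0.02. All 6 calls of 16 were lower, against 17.7% of all genes, and 0 were higher, against 16.8%. No list was tested as a set. Ppib, a peptidyl-prolyl isomerase of collagen folding, fell from 1379 and 1272 normalised CPM to 439, 486 and 510 (log2 -1.47, SE 0.12, adjusted p = 0.00151). P3h4 and Crtap, partners of prolyl 3-hydroxylation, fell by 1.35 and 0.73, and P4hb, the beta subunit of prolyl 4-hydroxylase, fell by 0.60 on the log2 scale.

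Among chaperone and export genes 10 were tested, 2 were higher and 3 lower, against 16.8% higher and 17.7% lower over all genes. Serpinh1, the collagen chaperone HSP47, fell from 2472 and 2399 to 1094, 1138 and 1730 (log2 -0.88, SE 0.21, adjusted p = 0.0189), and Sparc, a collagen-binding glycoprotein, fell by 0.59. Creb3l1, a transcription factor of collagen secretion, and Mia3, the export receptor TANGO1, rose by log2 values of 1.00 and 1.09. Among propeptide and cross-linking genes 5 of 10 tested were higher and 2 lower. Pcolce, an enhancer of procollagen C-proteinase, fell by 1.55 on the log2 scale, while the proteinases Bmp1 (0.74) and Adamts14 (1.82) and the lysyl oxidase Loxl2 (0.59) rose.

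Of the collagen receptors 7 were tested and 3 rose: Itga2 (log2 2.23), Itga11 (1.60) and the kinase Ddr2 (0.57), with 0 lower, against 16.8% of all genes higher and 17.7% lower. Of the fibril and basement membrane partners 20 were tested, 2 were higher and 4 lower, near the 34.4% of all genes called. The laminin chains Lamb1 (-1.30), Lama4 (-0.85) and Lamc1 (-0.73), which lie with collagen IV in basement membranes, fell, and Thbs1 rose (1.45). Of the TGF-beta axis, a known inducer of collagen genes, 16 were tested, 5 were higher and 1 lower, against 16.8% and 17.7% of all genes. Tgfbr2 (0.86), Smad4 (0.96) and Ltbp2 (3.14) rose and Smad3 (-1.06) fell. Ltbp2 rests on few UMIs, 12 and 12 in WT and 6, 2 and 44 in Ikkb_cKO 1, 2 and 3, so mostly on Ikkb_cKO 3. Of 10 genes of the dissociation response 1 was called, Dusp1 (1.19), and their summed level was 10246 and 9394 CPM in WT and 14942, 16221 and 9883 in Ikkb_cKO. Median log2 values were -0.12 for chaperones, 0.31 for cross-linking, 0.19 for receptors, -0.02 for partners and 0.41 for the TGF-beta axis, against 0.04 over all genes. These counts come from the pooled clusters and were not repeated with equal cluster weights.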

How the data were processed

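The authors deposited raw UMI counts, 1 matrix of genes by barcodes per library. Cell Ranger 1.3.0 and the build mm10 are named in the submitters' processing notes. Software version 3.0.1 is given per the file headers. Gene positions come from GENCODE (GRCm38).

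Barcodes needed 300 genes and no more than 10% mitochondrial UMIs, Scrublet removed 72 doublets, and 2000 variable genes without collagens, 30 components and 15 neighbours gave 33 Leiden clusters (resolution 1; scanpy 1.11.5). Clusters took the class whose markers were detected most often, with at least 3 markers in 25% of cells and 2 times the next class. The 3 clusters without a class held 185 cells. Counts were summed per library, and units reaching 20 cells per library were compared by genotype (edgeR 4.0.16, filterByExpr, TMM, robust quasi-likelihood, threshold 0.05). Levels by class are plain CPM and those named normalised are TMM-scaled. DESeq2 1.42.0 and limma 3.58.1 served alternatives. The edgeR step was tested on simulated data. Members and lists were chosen with earlier results of these data known, and every member could be named. Values are given per library for called members whose average log2 CPM reached 4, the 3 highest per class and their chain partners, and for up to 4 genes per list with the smallest p. Col4a5 and Col13a1 fall below that level and, like Col11a1 and the members described by cluster, were named after their values were seen. The labels do not say that each pool of 2 mice was prepared independently, so p-values measure only the spread between these libraries.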

Additional observations from a re-analysis of the deposited data

How the results depend on the processing

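In fibroblast-like cells the count of called members was 3 to 5 under other size factors, DESeq2, cell filters, doublet handling, resolutions, variable genes, equal cells and thinning, but 13 with limma's voom, 7 without a low-count filter, 17 with a replicate block and 1 to 17 on leaving out a library. The share of all genes called, 34.4% as reported, moved too: 47.1% with voom, 20.8% without a filter, 48.3% with the block, 4.02% without WT 1, 3.58% without WT 2 and 48.1% without Ikkb_cKO 3. The count was 1 without either WT library, where the lone WT sample is assumed to vary like Ikkb_cKO, and 17 without Ikkb_cKO 3. The block removes Ikkb_cKO 3, whose number has no WT partner. Deviations from the group mean had r = 0.03 and -0.03 between same-numbered libraries. With only 2 WT libraries these deviations are mirror images of each other. The r values therefore cannot decide whether the numbers pair libraries, and the labels name no pairing. Col4a2 stayed called in all 21 alternatives tried with a test (log2 from -1.23 to -1.05), at its weakest only just under the 0.05 threshold. The other 3 calls did not stay in all. Log2 values changed sign without Ikkb_cKO 3 and with the replicate block for Col1a1 (-0.26 with the block, -0.26 to 0.40 on leaving out a library), Col16a1 (-0.57, and -0.57 to 0.32) and Col7a1 (-2.46, and -2.46 to 0.63). Uncalled values also changed sign for Col1a2 in 8, Col14a1 in 6, Col3a1 in 3 and Col27a1 in 1 of the 21 alternatives with a test, and Col23a1 was at -0.05 without Ikkb_cKO 3. Col1a1 in cluster 5 was at -0.014 without a low-count filter.

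Counts of called members elsewhere were as follows. The share of all genes called in each of these fits is not given here. The counts alone therefore show nothing particular to collagen genes. In lymphocyte-like cells they were 2 without a filter and 0 to 2 on leaving out a library. In myeloid-like cells the stricter filter left 3 genes, all called. In cluster 5 they were 1 with DESeq2 size factors, 1 with DESeq2's Wald test, 1 with collagens out of library sizes, 1 with Ikkb_cKO 1 and 2 summed, 4 with a replicate block and 0 to 3 on leaving out a library. In cluster 10 they were 0 with DESeq2, which gave Col27a1 no adjusted p, 5 with a replicate block and 0 to 5 on leaving out a library. The difference between clusters gave 0 to 3 on leaving out a library. Apart from the filters, the cause was not tested.

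The WT collagen share of 4.00% was 3.93% and 3.89% with the looser and stricter cell filter, 3.91% and 3.92% at resolutions 0.5 and 2.0, 4.13% after thinning, and 0.560% without Col1a1, Col1a2 and Col3a1, when Ikkb_cKO gave 0.538%. In fibroblast-like cells 16 members had too few counts to be tested.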
